A study of Mus musculus with 3 samples.

Results

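The genes examined here handle zinc, iron and copper. They comprise the metallothioneins Mt1 and Mt2 with their transcription factor Mtf1, every zinc transporter gene of the Slc30a and Slc39a families on the array, and 15 named genes of iron and copper transport, storage and sensing. Genes were taken by the gene name in the scanner files, by a rule that uses no measured value, though the list was drawn up with earlier results of these data known. In all, 42 of the 37074 gene names on the array were members, read by 75 probes, and each gene was read from its brightest unflagged probe.

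Total RNA came from mpkDCT cells, a line from the distal convoluted tubule of mouse kidney. CRISPR-Cas9 knockout of Cyp27b1 is shared by all groups, so calcidiol (25(OH)D3) was given to cells whose gene for its converting 1α-hydroxylase had been targeted. The single Cyp27b1 probe was detected on no array, at 7.05 with calcitriol, 3.82 with calcidiol and 2.91 with vehicle, and whether it lies in the deleted stretch is not known here. One group received calcitriol (1,25(OH)2D3) at 1e-07 M for 24 h, another received calcidiol at 1e-07 M for 24 h, and the third received vehicle. For 24 h before treatment and during it, the medium was free of phenol red and held 2% charcoal-stripped serum, and each group was measured on 1 single-colour Agilent array. The labels do not say how many knockout clones were used, and a tag in the sample titles, siCT, is not explained in the sources used here. The description of the calcidiol sample once writes 25(OH)2D3, and its treatment tag, followed here, writes 25(OH)D3. No difference has a replicate check, so no p-value is given. Values with ± carry a technical error, the spot error given by the scanner software, and variation between cultures is not part of it. Signals are printed as deposited, and differences were taken after the 75th percentile of each array had been set equal. Since each array holds the RNA of a whole culture, fewer expressing cells and less RNA per cell cannot be told apart.

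Cells take up zinc through Slc39a (ZIP) transporters, move it out of the cytosol through Slc30a (ZnT) transporters and buffer it with metallothioneins. When zinc in the cytosol rises, the factor encoded by Mtf1 binds metal response elements and switches on the metallothionein genes and Slc30a1. Iron enters with transferrin through the receptor encoded by Tfrc, is stored in ferritin and leaves through ferroportin, while iron regulatory proteins stabilise Tfrc messenger RNA and hold back ferritin translation when iron is scarce. Copper enters through Slc31a1 and is pumped by Atp7a and Atp7b, partly into ceruloplasmin, a copper enzyme that oxidises iron.

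With calcitriol, the zinc exporter gene Slc30a1 was 4.52-fold higher than with vehicle, the zinc importer gene Slc39a10 was 1.89-fold higher, and the transferrin receptor gene Tfrc was 2.10-fold lower. With calcidiol, Slc30a1 was 2.31-fold higher than with vehicle, and it was the one measured member past 1.5-fold. Mt1 was 1.60-fold lower with calcitriol than with calcidiol. Among the other iron and copper genes, ferritin, ferroportin, the iron regulatory proteins and the copper pumps all lay within 1.5-fold in each comparison by their brightest probes. A dim other probe of Aco1, an iron regulatory protein gene, stood at 0.89 on the log2 scale with calcidiol against vehicle. The plot of signals by array shows the genes with the widest differences together with ferroportin and ceruloplasmin. Those 2 genes lay just inside 1.5-fold between the hormones, at 0.56 and -0.55 on the log2 scale.

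**Figure D1:**
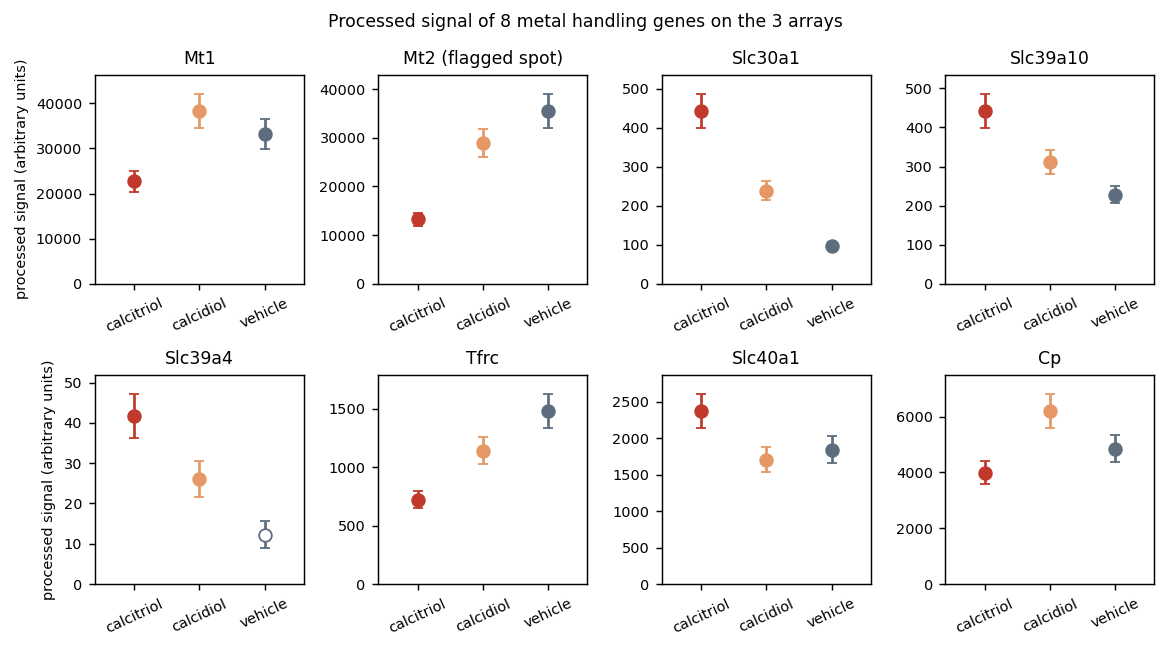
Processed signal in arbitrary units on a linear axis from 0 for 8 genes on the calcitriol, calcidiol and vehicle arrays, 1 array each. Bars are the scanner's error of the spot, an open point was not well above background, and Mt2 was read from a flagged spot. Slc30a1 stands at 443 with calcitriol, 239 with calcidiol and 95.7 with vehicle, and Tfrc at 720, 1139 and 1478.

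A spot counts as detected when the scanner software called it well above background. Of the 41 members with an unflagged probe, 31 were detected on all 3 arrays, 2 on 2 arrays (Slc30a3 and Slc39a4), 1 on the calcitriol array alone (Slc39a8) and 7 on none. Those 7 were Hamp, Trf, Slc30a8, Slc30a10, Slc39a2, Slc39a5 and Slc39a12. A difference was computed only where both arrays detected the probe, so a gene seen on 1 side alone has a bound and not a fold. The remaining member, Mt2, has a single probe, whose local background on the vehicle array was called an outlier, and it stays out of the counts and medians below. Across arrays the share of spots well above background ranged from 49.7% to 51.0%, the lowest signal well above background from 13.4 to 17.9, and the median coefficient of variation between spots of a replicated probe from 3.76% to 9.76%. The arrays shared 1 slide and 1 scan. Each array has its own place on the slide, so place and treatment cannot be told apart.

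The labelled cell type was set against its markers. Of 12 distal convoluted tubule markers, 5 were detected with calcitriol, 5 with calcidiol and 4 with vehicle. These were Wnk4, Kcnj10, Kcnj16 and Egf on every array, and Pvalb with calcitriol and calcidiol. Slc12a3, which encodes the thiazide-sensitive cotransporter that defines this segment, was not detected on any array, nor were Trpm6, Calb1, Slc8a1, Trpv5, Klhl3 and Umod. Of 5 general epithelial markers, Cdh1, Epcam, Krt8 and Krt18 were detected on no array, and Cldn7 was detected at 16.1 with calcitriol and 21.0 with calcidiol but not with vehicle. By contrast, 3 of 5 proximal tubule markers (Lrp2, Cubn and Aqp1) were detected on each. The summed signal of the proximal tubule list was 5988 with calcitriol, 4825 with calcidiol and 3269 with vehicle, and Lrp2 made up most of it, at 5090, 3812 and 1923. Aqp1 ran the other way, at 756, 839 and 1189, and Cubn was lowest with calcitriol, at 136, 161 and 151. The order of Lrp2 over the arrays is the one Slc30a1 shows below, the other detected markers of the list do not have it, and their part in the result was not tested. Of the distal tubule markers detected on every array, Egf had that order after scaling, with signals of 51.0, 41.9 and 37.0. Wnk4, Kcnj10 and Kcnj16 did not. The same order was seen in 20.1% of all genes detected on all 3 arrays. The summed signal of 6 fibroblast markers, of which Col1a1 alone was detected, was 125 with calcitriol, 182 with calcidiol and 265 with vehicle. That order is the one Tfrc shows below and was seen in 21.9% of all genes detected on all 3 arrays, and its part was not tested either. Detected on all arrays were 2 of 6 collecting duct markers (Aqp2 and Scnn1a) and 2 of 3 leukocyte markers on the array, Ptprc at 339, 419 and 322 and Cd68 at 97.0, 123.4 and 117.4. Of 3 erythroid markers, Hba-a1 alone was detected, with calcitriol only and at least 2.44-fold over vehicle, and of 3 hepatocyte markers none was detected.

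In calcitriol against vehicle, 32 members were measured on both arrays. At 2-fold, 1 member was higher (Slc30a1), where 0.966% of all 16671 genes measured were higher, and 1 was lower (Tfrc), where 1.63% of all genes were lower. At 1.5-fold, 2 members were higher (Slc30a1 and Slc39a10) against 3.38% of all genes, and 1 was lower (Tfrc) against 6.26% of all genes. The median difference of the members was 0.11 on the log2 scale, against -0.00 for all genes, and 17 members lay above 0 and 15 below, where 49.2% of all genes lay above 0. With each array centred on its median, 22 members lay above 0 and 10 below, while the median of all genes itself moved to 0.12. The share of all genes above 0 was not computed for that centring. With that centring, the 2 members past 2-fold were both higher (Slc30a1 and Slc39a10) and none was lower, since Tfrc then stood at -0.95.

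In calcidiol against vehicle, 31 members were measured. At 2-fold, Slc30a1 was the 1 member higher, where 0.852% of all 16664 genes were higher, and 0 members were lower, where 0.144% of all genes were lower. The counts at 1.5-fold were also 1 and 0, against 2.84% and 1.33% of all genes. The median difference was 0.07 for the members and -0.01 for all genes, with 23 members above 0 and 8 below, where 47.7% of all genes lay above 0. This split was 17 and 14 with median centring and 18 and 13 with normexp followed by quantile normalisation. The median of all genes was -0.07 and -0.02 in these settings. In calcitriol against calcidiol, 32 members were measured and 0 were 2-fold higher or 2-fold lower, against 0.466% and 1.40% of all 16517 genes. At 1.5-fold, 3 members were higher (Slc30a1, Slc39a4 and Slc39a10) and 1 was lower (Mt1), against 2.16% and 5.55% of all genes. With median centring this split was 4 higher and 0 lower, and with quantile or cyclic loess normalisation it was 2 and 2. Median centring moved the median of all genes to 0.19 in this comparison.

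**Figure D2:**
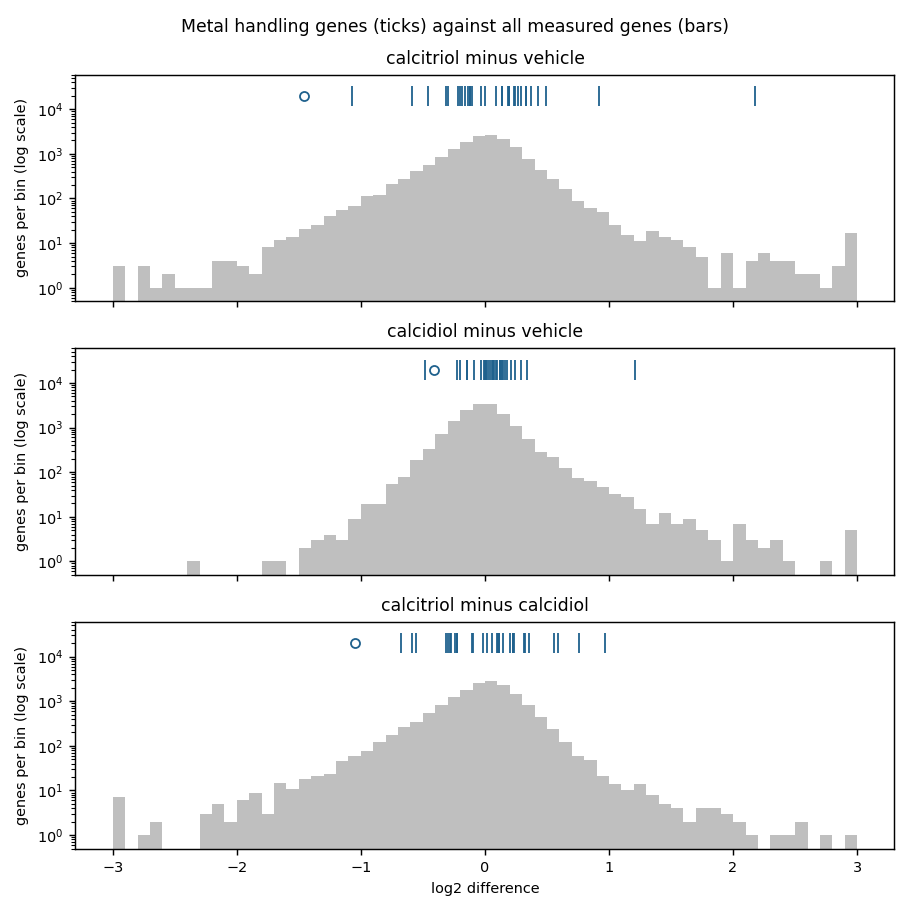
Number of genes per bin of 0.1 on a log axis against the log2 difference, for all genes measured on both arrays (bars) and for the members (ticks, with the flagged Mt2 probe as a circle). The end bins hold all values beyond 3 in size. Ticks stand in a row above the bars, most of them over the bulk of the bars, and the tick farthest to the right in each panel is Slc30a1, at 2.18, 1.21 and 0.97.

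The metallothionein genes come first, since they answer to zinc. Mt1 and Mt2 encode small cysteine-rich proteins that bind zinc and copper, and Mtf1 encodes the zinc-sensing factor that binds metal response elements. The promoters of Mt1, Mt2 and Slc30a1 are shown because these genes are among the known targets of that factor and their differences are described below. Each window runs from 250 bases before the start annotated by RefSeq to 50 bases after it, on assembly GRCm38.p6, and all 3 lie on the + strand. Capitals mark the core of a metal response element, searched as TGCACNC or TGCGCNC on both strands, so a match on the other strand reads as GNGTGCA or GNGCGCA.
Mt1, chr8:94178839-94179138: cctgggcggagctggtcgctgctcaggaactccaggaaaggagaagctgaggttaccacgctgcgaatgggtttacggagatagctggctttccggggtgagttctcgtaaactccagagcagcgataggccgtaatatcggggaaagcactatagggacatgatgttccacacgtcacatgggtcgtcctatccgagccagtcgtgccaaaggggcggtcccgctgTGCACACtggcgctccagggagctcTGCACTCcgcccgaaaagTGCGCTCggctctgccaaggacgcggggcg
Mt2, chr8:94172368-94172667: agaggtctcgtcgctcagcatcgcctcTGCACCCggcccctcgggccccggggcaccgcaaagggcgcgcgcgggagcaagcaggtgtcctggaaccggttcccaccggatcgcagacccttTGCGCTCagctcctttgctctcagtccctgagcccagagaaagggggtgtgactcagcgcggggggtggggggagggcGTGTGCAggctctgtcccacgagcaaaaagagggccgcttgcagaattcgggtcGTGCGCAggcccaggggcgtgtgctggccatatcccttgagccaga
Slc30a1, chr1:191906531-191906830: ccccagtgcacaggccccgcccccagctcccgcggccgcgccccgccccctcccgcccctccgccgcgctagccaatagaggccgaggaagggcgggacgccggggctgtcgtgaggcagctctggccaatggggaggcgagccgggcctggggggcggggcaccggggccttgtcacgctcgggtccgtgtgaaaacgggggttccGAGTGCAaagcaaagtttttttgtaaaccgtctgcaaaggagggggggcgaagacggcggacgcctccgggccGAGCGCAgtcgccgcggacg
The Mt2 window holds 4 matches, the Mt1 window 3 and the Slc30a1 window 2. These counts and positions depend on the RefSeq start used, and elements outside the windows were not searched. Windows with at least 4 matches make up 0.295% of the 32851 mouse promoters in the same table, those with at least 3 make up 1.31% and those with at least 2 make up 6.14%.

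Promoter windows were found for 35 of the 42 members, 46 windows in all. Slc39a4, Slc39a6, Slc39a14, Slc30a8, Slc40a1, Slc11a2 and Trf had no window and were not searched. At least 1 match was present in 19 of these 46 windows (41.3%), against 25.7% of all promoters. At least 2 matches were present in 7 member windows (15.2%), those of Mt1, Mt2, Slc30a1, Slc30a2, Slc30a4, Slc30a10 and Atp7a. Slc39a10 had no match in either of its windows, and Tfrc had 1 match in the first of its windows and none in the other. Slc30a4, which loads zinc into vesicles, had 3 matches and differed from vehicle by -0.12 with calcitriol and 0.16 with calcidiol. A match describes the letters of a window and shows no binding.

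**Figure D3:**
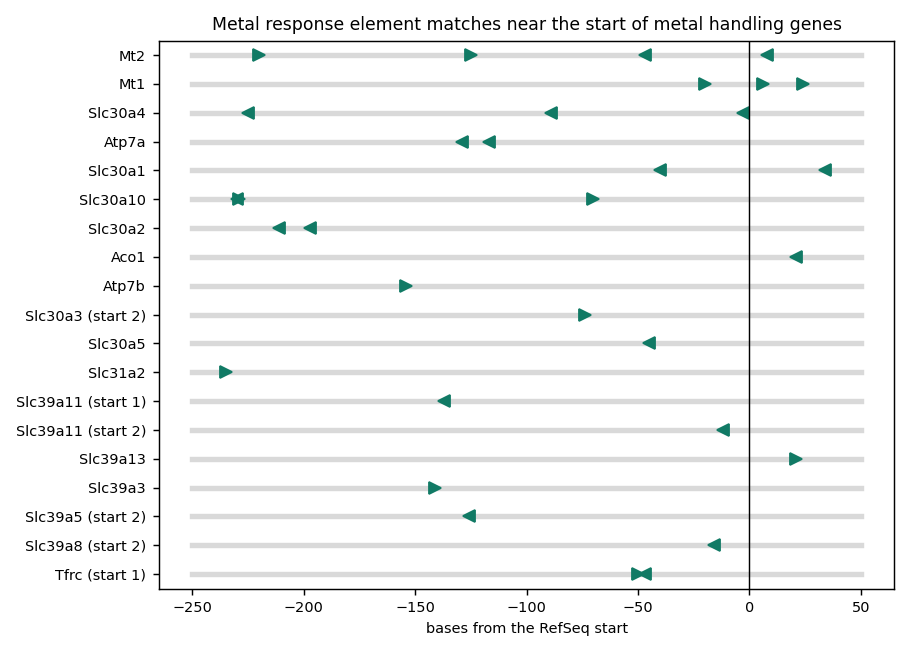
Positions of metal response element matches (triangles, pointing right for the strand of the gene and left for the other strand) along promoter windows (grey lines), in bases from the RefSeq start, for the 19 windows with at least 1 match. Mt2 with 4, then Mt1 and Slc30a4 with 3 each, head the list, and matches that overlap on opposite strands, as in Slc30a10 and Tfrc, were counted once.

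Mt1 (probe at chr8:96704165-96704224 on mm9, + strand) had processed signals of 22690 with calcitriol, 38338 with calcidiol and 33250 with vehicle. The calcitriol array was the lowest of the 3, and the calcidiol and vehicle arrays lay close together. The differences were -0.58 ± 0.20 for calcitriol minus vehicle, 0.09 ± 0.20 for calcidiol minus vehicle and -0.68 ± 0.20 for calcitriol minus calcidiol. The first was 1.4996-fold lower and so fell just short of the 1.5-fold limit, and 4 of the 11 processing alternatives carried it past that limit. Alternatives that only select genes left it unchanged. The other Mt1 probe, far dimmer and annotated to a predicted transcript model, had signals of 108, 136 and 170. That probe was also lowest with calcitriol, at -0.68 against vehicle. It differed from the brighter probe in placing calcidiol below vehicle, at -0.43.

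Mt2 (probe at chr8:96697371-96697430 on mm9, + strand) had processed signals of 13225 with calcitriol, 28894 with calcidiol and 35544 with vehicle. The calcitriol array was again the lowest. The differences were -1.46 ± 0.20 (2.75-fold lower), -0.41 ± 0.20 and -1.05 ± 0.20 (2.07-fold lower), in the same order of comparisons. The flag on this spot concerns its surroundings on the vehicle array, where the local background was 68, beside 66 for calcitriol and 65 for calcidiol. The mean raw signal of the spot was 14343 with calcitriol, 30461 with calcidiol and 37609 with vehicle. The Mt1 and Mt2 probes match at no more than 24 of 60 bases when laid side by side without gaps. Mtf1 had 1228, 1396 and 1378, which differed by less than the technical error in each comparison. Its 3 other measured probes lay between 0.06 and 0.23 for calcitriol minus vehicle, against -0.20 for the brightest.

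The Slc30a genes encode zinc transporters that lower cytosolic zinc, and 8 of the 10 were measured in calcitriol against vehicle. Slc30a1, the exporter of the plasma membrane, had 443 with calcitriol, 239 with calcidiol and 95.7 with vehicle (probe at chr1:193736760-193736819 on mm9, + strand). The 3 arrays were well separated, with calcidiol between calcitriol and vehicle. The differences were 2.18 ± 0.21 for calcitriol minus vehicle, 1.21 ± 0.21 for calcidiol minus vehicle and 0.97 ± 0.21 for calcitriol minus calcidiol, the last a 1.96-fold excess. By size these placed Slc30a1 at rank 40 of 16671 genes, rank 78 of 16664 and rank 82 of 16517, counted from the highest. The comparisons share arrays and are not independent of each other. The gene has 1 probe on the array, so no second probe bears on it. Over the 11 alternatives the difference from vehicle ranged from 1.74 to 2.30 with calcitriol and from 0.89 to 1.24 with calcidiol, where the lowest values came with normexp, an offset of 50 and quantile normalisation together.

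The other Slc30a genes differed far less. Slc30a2, a transporter of secretory vesicles, had 80.8, 66.7 and 58.7, a difference of 0.43 ± 0.22 with calcitriol and 0.07 ± 0.23 with calcidiol. Slc30a3, known from synaptic vesicles, had 22.0 with calcitriol and 29.4 with vehicle and was not well above background with calcidiol, so its level there was at least 1.78-fold below vehicle. Slc30a4, Slc30a5, Slc30a6, Slc30a7 and Slc30a9, which serve vesicles, the secretory pathway and, for Slc30a9, mitochondria, lay between -0.16 and 0.20 with calcitriol and between -0.14 and 0.16 with calcidiol. Slc30a8, the transporter of insulin granules, and Slc30a10, which exports manganese, were detected on no array, and Slc30a10 had signals of 2.97, 3.90 and 2.90.

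The Slc39a genes encode transporters that raise cytosolic zinc, and the 9 measured in calcitriol against vehicle had a median difference of 0.27, with 7 above 0 and 2 below, beside 49.2% of all genes above 0. In calcidiol against vehicle the median of 9 was 0.07, with 8 above 0, beside 47.7% of all genes. With median centring, 9 of the 9 lay above 0 with calcitriol and 5 of the 9 with calcidiol. That centring moved the median of all genes to 0.12 with calcitriol and -0.07 with calcidiol. Slc39a10, an importer of the plasma membrane, had 443 with calcitriol, 311 with calcidiol and 228 with vehicle (probe at chr1:46865343-46865402 on mm9, - strand). Its order over the arrays was that of Slc30a1, with narrower steps. The differences were 0.92 ± 0.21, 0.33 ± 0.21 and 0.59 ± 0.20, and the last was 1.5011-fold and so just past the limit. The other Slc39a10 probe, with 111, 96.7 and 75.4, kept that order at 0.53, 0.25 and 0.28, all short of 1.5-fold.

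Slc39a4, the importer whose loss causes zinc deficiency in people, had 41.8 with calcitriol and 26.0 with calcidiol, and its 12.2 with vehicle was not well above background. It was at least 3.06-fold higher with calcitriol and at least 1.81-fold higher with calcidiol than with vehicle. Between the hormones it was 0.76 ± 0.31 higher with calcitriol, a value that was 0.23 with normexp followed by quantile normalisation and 0.42 with an offset of 32. Slc39a8, which carries zinc and manganese, had 21.1 with calcitriol, 3.64 with calcidiol and 2.66 with vehicle and was detected with calcitriol alone. That sets bounds of at least 1.55-fold over vehicle and at least 1.25-fold over calcidiol, and its 2 other probes were detected on no array. Both genes lay near background on every array that detected them.

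Slc39a11, a ZIP transporter, had 3378, 3105 and 2348, or 0.49 ± 0.20 with calcitriol and 0.29 ± 0.20 with calcidiol. Its other measured probe gave 0.43 and 0.11. Slc39a14, which carries zinc and non-transferrin iron, had 408, 389 and 331, or 0.27 ± 0.20 and 0.12 ± 0.20. Slc39a7, which releases zinc from the endoplasmic reticulum, had 11252, 9469 and 9682, and Slc39a1, an importer of the plasma membrane, had 9064, 10237 and 9046. Neither gene differed by as much as 1.5-fold in any comparison. Slc39a3, Slc39a6, Slc39a9 and Slc39a13 lay between -0.00 and 0.33 with calcitriol and between 0.01 and 0.13 with calcidiol. Slc39a2, Slc39a5 and Slc39a12 were detected on no array, and Slc39a2 had 3.73, 6.67 and 3.15.

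**Figure D4:**
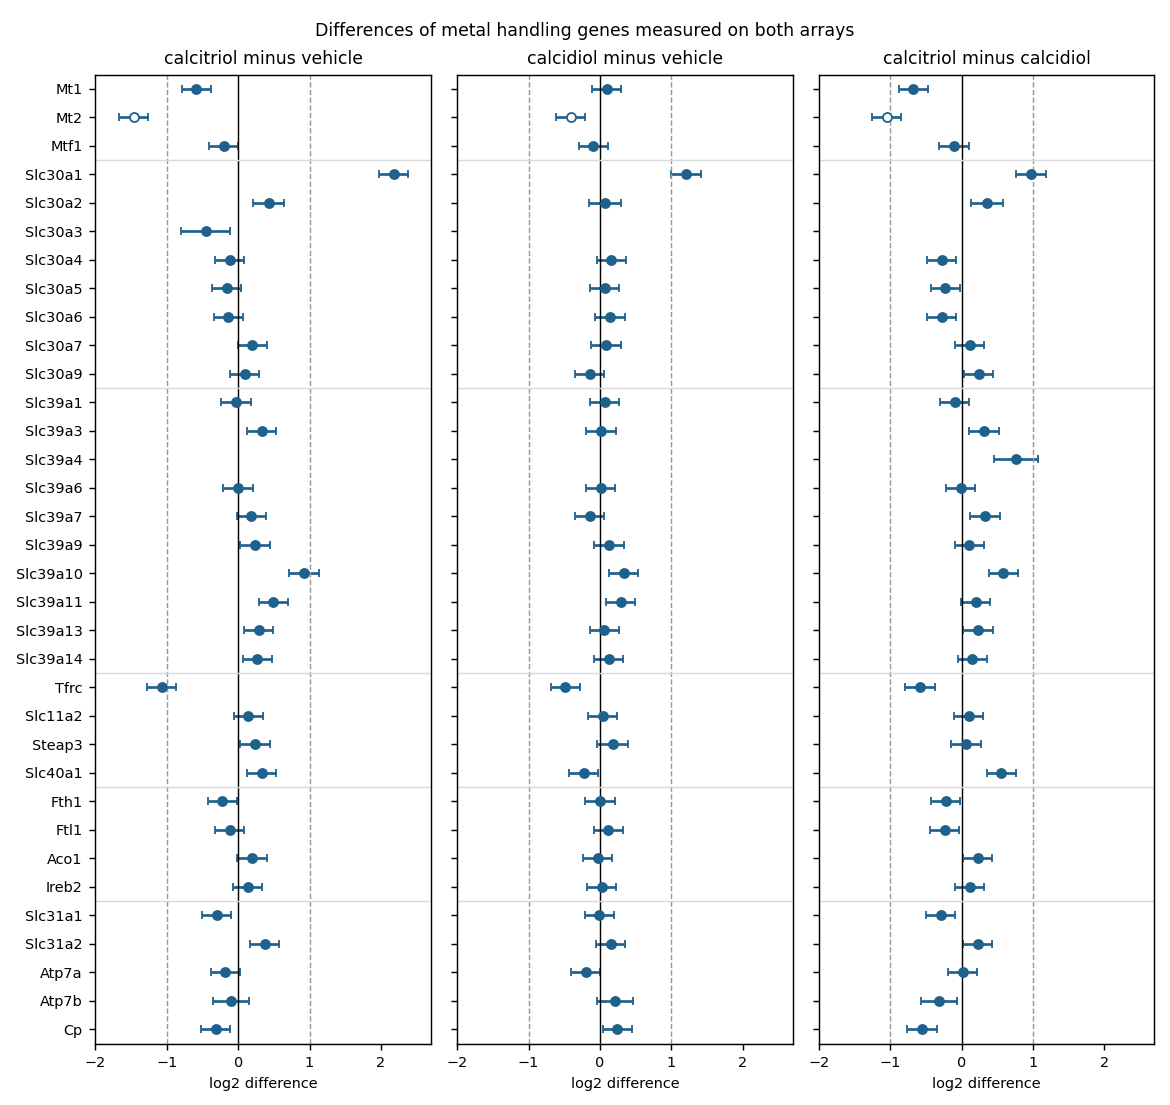
Log2 difference of each member measured on both arrays, in panels for calcitriol minus vehicle, calcidiol minus vehicle and calcitriol minus calcidiol. Bars are the scanner's technical error, dashed lines mark 2-fold, grey lines part the groups of genes by role, and the open circle is the flagged Mt2 probe. Slc30a1 at 2.18 and Tfrc at -1.07 are the members with an unflagged probe beyond the dashed lines in the first panel.

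The iron genes held 1 member past 2-fold. Tfrc, the receptor that takes up transferrin-bound iron, had 720 with calcitriol, 1139 with calcidiol and 1478 with vehicle (probe at chr16:32632255-32632314 on mm9, + strand). The calcitriol array was the lowest and the vehicle array the highest. The differences were -1.07 ± 0.20, -0.49 ± 0.20 and -0.58 ± 0.20, and the last was 1.4993-fold lower, just inside the limit. The other Tfrc probe had 143, 314 and 357, in the same order, at -1.36 with calcitriol against vehicle, -0.30 with calcidiol against vehicle and -1.06 between the hormones. By the other probe the calcidiol array thus lay nearer to vehicle than by the brighter one. By its brighter probe Tfrc ranked 218 of 16671 from the lowest with calcitriol and 419 of 16664 with calcidiol.

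Slc40a1, which encodes ferroportin, the iron exporter, had 2374 with calcitriol, 1704 with calcidiol and 1843 with vehicle. It was highest with calcitriol, at 0.33 ± 0.20 against vehicle and 0.56 ± 0.20 against calcidiol, and at -0.22 ± 0.20 for calcidiol minus vehicle. Its other probe, near background, kept these signs at 0.08, 0.20 and -0.12. Slc11a2, the divalent metal transporter DMT1, had 528, 520 and 468, and Steap3, an endosomal ferrireductase, had 106.6, 107.9 and 88.4. Slc11a2 differed from vehicle by 0.14 with calcitriol and 0.04 with calcidiol, and Steap3 by 0.24 and 0.18. Trf, the iron carrier of plasma, and Hamp, the hormone that degrades ferroportin, are liver genes and were not well above background, with signals of 5.72, 3.74 and 3.25 for Trf and 3.82, 3.56 and 3.29 for Hamp.

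Fth1 and Ftl1 encode the heavy and light chains of ferritin. Fth1 had 40127 with calcitriol, 49362 with calcidiol and 45686 with vehicle, or -0.22 ± 0.20, 0.00 ± 0.20 and -0.22 ± 0.20 in the 3 comparisons. Ftl1 had 36198, 45063 and 38408, or -0.12 ± 0.20, 0.12 ± 0.20 and -0.24 ± 0.20, and its other probe gave 0.34 for calcitriol minus vehicle. The 2 Ftl1 probes thus disagreed in sign. Aco1 and Ireb2 encode the iron regulatory proteins. Aco1 had 2416, 2184 and 2064, or 0.19 with calcitriol and -0.03 with calcidiol, while its dim other probe gave 0.55 and 0.89. Ireb2 had 2291, 2240 and 2037, or 0.14 and 0.03.

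The 5 copper genes were all detected on all 3 arrays, and by its brightest probe none passed 1.5-fold in any comparison. Slc31a1, the copper importer CTR1, had 2540 with calcitriol, 3286 with calcidiol and 3058 with vehicle, or -0.30 ± 0.20 and -0.01 ± 0.20 against vehicle. Slc31a2, its relative, had 928, 838 and 700, or 0.37 ± 0.20 and 0.15 ± 0.20. The signs of these genes were opposite with calcitriol. The copper pump gene Atp7a had 2029, 2115 and 2249, or -0.18 and -0.20, and the other pump gene Atp7b had 37.9, 49.7 and 39.8, or -0.10 and 0.21. Each lay within its technical error with both hormones. Cp, which encodes ceruloplasmin, had 3997 with calcitriol, 6196 with calcidiol and 4848 with vehicle, lowest with calcitriol and highest with calcidiol. Its differences were -0.31 ± 0.20, 0.24 ± 0.20 and -0.55 ± 0.20. Of its 4 other probes, 3 gave the same signs, with -0.79 to -0.50 between the hormones, and 1 gave 0.12, -0.08 and 0.21.

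Probes of a gene could be compared for 15 members with at least 2 measured probes. All probes of a gene had the same sign in 12 of 15 genes for calcitriol minus vehicle, in 6 for calcidiol minus vehicle and in 8 for calcitriol minus calcidiol. Tfrc and Slc39a10 were among the genes whose probes kept their sign in all 3 comparisons. Mt1 kept it in the comparisons with calcitriol and lost it for calcidiol minus vehicle. The widest gap between probes of a gene was 0.55, 0.92 and 1.00 on the log2 scale in the 3 comparisons. The first involved a dim Slc30a9 probe with a technical error of 0.33, and the second a dim Aco1 probe with 0.38. The third lay between Cp probes with errors of 0.20 each. A gap carries the errors of both probes and is the largest of 15 genes, so the error of a single difference is no measure for it.

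**Figure D5:**
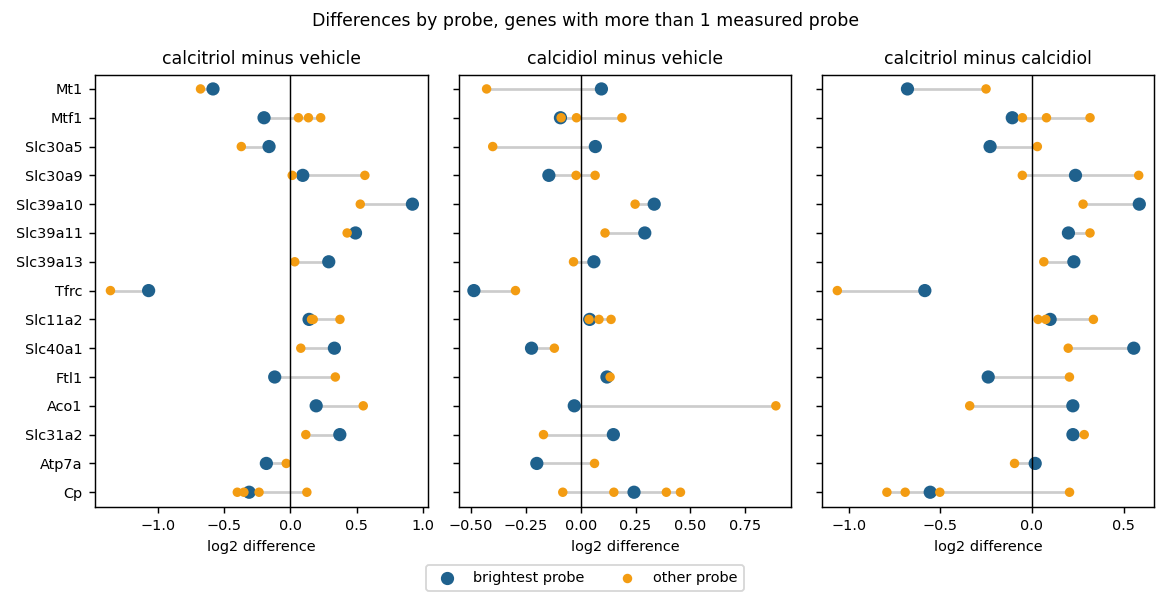
Log2 difference by probe for the 15 members with at least 2 measured probes, with the brightest probe in blue and other probes in orange, in panels for calcitriol minus vehicle, calcidiol minus vehicle and calcitriol minus calcidiol. Axes differ between panels. Both Tfrc probes lie left of 0 and both Slc39a10 probes right of 0 in each panel, whereas probes of Mtf1, Aco1 and Cp fall on both sides of 0 in at least 1 panel.

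Of the 31 members detected on all 3 arrays, 13 were highest with calcitriol and lowest with vehicle, where 20.1% of 16396 genes had that order. This order uses the sign of each step and not its size. Of the 13, only Slc30a1 and Slc39a10 had both steps beyond the technical error. Slc39a3 stood at 0.01 ± 0.21 for calcidiol minus vehicle and Steap3 at 0.06 ± 0.21 between the hormones. The order was not recomputed with median centring. After scaling, the reverse order was seen in 3 members (Tfrc, Mtf1 and Slc31a1), where 21.9% of genes had it. The comparisons share arrays, so the order is a description of these 3 arrays. In all, 27 of the 31 lay within 1.5-fold in all 3 comparisons, and the share of all genes that did so was not computed. Of all genes, 3.38% were 1.5-fold higher and 6.26% lower with calcitriol against vehicle. These shares were 2.84% and 1.33% with calcidiol against vehicle, and 2.16% and 5.55% between the hormones. The differences of these 27 members ran from -0.31 to 0.49 with calcitriol against vehicle and from -0.22 to 0.29 with calcidiol against vehicle. Between the hormones they ran from -0.55 to 0.56.

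Other genes of metal handling, taken from a list of 46, numbered 42 on the array, of which 34 were measured in each comparison. In calcitriol against vehicle 0 were 1.5-fold higher and 2 were lower, beside 3.38% and 6.26% of all genes. These were Tmprss6, a protease that restrains hepcidin, at 46.6 with calcitriol, 79.6 with calcidiol and 84.2 with vehicle (-0.89 ± 0.23 for calcitriol minus vehicle), and Slc48a1, a heme transporter, at 2616, 3450 and 3851 (-0.59 ± 0.20). In calcidiol against vehicle none passed 1.5-fold in either direction. In calcitriol against calcidiol 0 were higher and 2 were lower, beside 2.16% and 5.55% of all genes. These were Tmprss6 at -0.70 ± 0.23 and Lcn2, which encodes an iron-siderophore carrier, at -0.61 ± 0.23. The medians of these 34 genes were 0.03, 0.07 and -0.02 in the 3 comparisons, and the members past 1.5-fold (Slc30a1, Slc39a10, Slc39a4, Tfrc and Mt1) have their values above.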

How the data were processed

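Total RNA was labelled with Cy3 and hybridised to Agilent mouse arrays, 1 per group. The scanner files deposited by the authors give a linear intensity for each spot. Background was subtracted with Agilent Feature Extraction 10.7.1.1 on an mm9 probe design, per the file headers; version 9.5.1.1 stands in the submitters' processing notes. The deposited value table, also an intensity per probe, served as an alternative.

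From each array's 62976 spots, 59305 were kept as not being controls. Outlier flags took out 1489 of 56605 probes, and 0 spots were saturated. Each array was scaled on the log2 scale by its 75th percentile, which was 379.8 for calcitriol, 400.8 for calcidiol and 371.1 for vehicle. The probe with the highest mean log2 signal stood for a gene. A bound sets the array that detected a probe against the other array's own value or its lowest signal well above background, whichever was higher. Spot errors do not enter a bound, so it is a limit for the printed signals only. Technical errors combine the deposited errors of both spots.

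With 1 array a group no test was possible, and sizes were read at 2-fold and 1.5-fold. All members are named. Full values are given for members at least 1.5-fold apart, members with a bound of at least 2-fold, the 5 brightest and a set of core genes. The members, gene lists and alternatives were chosen with earlier results of these data known. Promoter sequences are RefSeq's, on GRCm38.p6, and probe positions are on mm9. Exon and UTR annotation was not used here. Python 3.11.15 with numpy 2.4.6, pandas 2.3.3 and matplotlib 3.10.9, and R 4.3.3 with limma 3.58.1, were used, and the step that counts genes was checked on simulated data.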

Additional observations from a re-analysis of the deposited data

How the results depend on the processing

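No paired analysis was possible because each group has 1 array and no test was run. The 11 alternatives gave 1064 values for the 98 member differences. Of these, 1044 stayed within the technical error of the value reported and 20 moved by more. Among changes of at least 1.5-fold, 0 turned direction. Settings that only select genes, such as those on detection or low signal, repeat the reported value of a gene read from the same probe. Averaging over probes does so for a gene with 1 measured probe. Such values could not move, so the 1044 overstates how far the differences were tried. With each array centred on its median, the median of all genes became 0.12 for calcitriol minus vehicle and 0.19 for calcitriol minus calcidiol, the member medians became 0.24 and 0.29, and 1 member (Slc30a1) was 2-fold apart between the hormones. With genes kept when detected on at least 1 array, 4 members were 2-fold and 5 were 1.5-fold apart in calcitriol against vehicle. The members so added there were Slc39a4 and Slc39a8, whose vehicle signals of 12.2 and 2.66 were not well above background. With the same filter 3 were 1.5-fold apart in calcidiol against vehicle and 1 was 2-fold apart between the hormones. This filter admits dim genes of every kind, and the share of all genes past these limits was not computed for it. With normexp and an offset of 50 followed by quantile normalisation, and with an offset of 32, 0 members were 2-fold apart in calcidiol against vehicle, and with the offset of 32 there were 2 members 1.5-fold apart between the hormones. Both of these settings raise low signals by construction. With outlier spots kept, Mt2 was the 1 member 2-fold apart between the hormones. Signals near background limit Slc39a4, Slc39a8 and Slc30a3, and 1 array per group leaves variation between cultures unmeasured for every value.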
